A study of Homo sapiens with 12 samples.

Results

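The genes described here encode translation initiation and elongation factors. They were taken by symbol, as every row starting with EIF or EEF and a digit, leaving out the EIF2AK kinases, EIF1AY and pseudogenes. The rule gave 60 genes of the 23533 listed in either table of the series, of which 57 were in both tables. EIF4EBP1, EIF4EBP2 and EIF4EBP3, whose symbols end like those of pseudogenes, are protein-coding inhibitors and were kept. The antisense transcripts EIF3J-AS1 and EIF2B5-AS1 also fell under the rule. MEC1 listed 60 of the genes and 57 passed the filter on low counts, while JVM2 listed 57 and 55 passed, so that 54 could be tested in both lines. The rule used no measured value.

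RNA of 2 established human neoplastic B-cell lines, MEC1 and JVM2, was sequenced in 12 libraries, with 3 replicates of each of 4 populations. The question was what high expression of UGT2B17, an enzyme that conjugates steroids and other lipids with glucuronic acid, does to gene expression. Both MEC1-2B17 and JVM2-2B17 are stable populations that received UGT2B17 cDNA in pcDNA6 and grew under blasticidin. JVM2-CTRL cells carried pcDNA6 without an insert under the same antibiotic. MEC1-CTRL cells instead had a stable shRNA knock-down of UGT2B17 and grew under puromycin, so that in MEC1 the enzyme, the construct and the antibiotic changed together and cannot be told apart. The studied effect therefore sets overexpression against an empty vector in JVM2 and overexpression against knock-down in MEC1. The replicates of an arm are samples of a stable population, so P-values measure the spread between samples of that population and not between independent transfections.

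Initiation factors bring the initiator tRNA, the small ribosomal subunit and the capped mRNA together and select the start codon, and elongation factors then deliver tRNAs and move the ribosome along. Lymphoid cells raise the output of this machinery when they grow and divide. Many of its mRNAs, with those of all cytosolic ribosomal proteins, are known to begin with a C followed by an unbroken run of pyrimidines, the terminal oligopyrimidine or TOP element. Through this element mTOR and LARP1 control their translation and stability as a group. EEF1A1, EEF2, EEF1B2 and subunits of eIF3 are named as such members by the rule, so a comparison with the ribosomal protein genes was part of the question.

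Libraries held 31762649 to 37744991 counts in MEC1 and 8809179 to 11231330 counts in JVM2. The spread between replicates, as edgeR's common coefficient of biological variation, was 4.22% in MEC1 and 6.92% in JVM2. Levels are given as CPM, the counts scaled to library size with TMM factors, and changes as log2 fold changes of 2B17 over CTRL, with ± their standard error. A gene is called higher (risen) or lower (fallen) at an adjusted P under 0.05 in edgeR's quasi-likelihood test. UGT2B17 itself was counted 447, 371 and 346 times in MEC1-CTRL replicates and 766, 673 and 637 times in MEC1-2B17 replicates, a change of 0.94 ± 0.069 (adjusted P = 2.02e-09). Its counts were 299, 281 and 258 in JVM2-CTRL and 389, 402 and 315 in JVM2-2B17, a change of 0.48 ± 0.11 (adjusted P = 0.00481). In both lines each 2B17 library was above each CTRL library in CPM, as labelled. The 5 B-cell markers CD22, CD79A, CD79B, MS4A1 and PAX5 were above 50 CPM in each library. CD14, of myeloid cells, and CD3E, of T cells, reached at most 0.151 and 0.123 CPM in MEC1, and LYZ and COL1A1 at most 0.568 and 1.86 CPM in any library. Of these B-cell markers 2 were higher and 3 lower in MEC1, and 2 higher and 1 lower in JVM2, and their part in the results was not tested. One library differed from its replicates over the factor genes. The median factor gene of JVM2-2B17 replicate 2 lay 0.12 (log2) above the mean of JVM2-CTRL, against 0.015 and 0.020 for replicates 1 and 3. Values in JVM2 that moved by over 1.5 times without this library are given with both values where they are printed singly. As these are bulk samples, a change in the share of some cells and a change in RNA per cell cannot be told apart.

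High UGT2B17 expression went with higher levels of many factor genes in MEC1 and of fewer in JVM2. In MEC1, 29 of 57 tested factor genes were higher and 6 lower, with a median change of 0.10. Of all 16581 genes tested in this line, 41.7% changed (20.0% higher and 21.6% lower), with a median change of 0.0026. In JVM2, 13 of 55 factor genes were higher and 4 lower, with a median of 0.043. The share of changed genes among all 13021 tested there was 29.3% (14.1% higher and 15.3% lower), with a median of 0.00012. The share of factor genes that were higher (50.9% in MEC1, 23.6% in JVM2) was thus above that of all genes in both lines, and the share that were lower (6 of 57 and 4 of 55) was under it. Without JVM2-2B17 replicate 2, 15 were higher and 5 lower in JVM2. The lower ones numbered 3 in MEC1 without CTRL replicate 2 or without 2B17 replicate 1 or 3, 2 in MEC1 where both edgeR's exact test and DESeq2 had to call them, and 2 in JVM2 without CTRL replicate 3. The 3 libraries of one arm all lay on the same side of the 3 of the other for 39 factor genes in MEC1, where 50.1% of all genes did so, and for 24 in JVM2, where 45.2% did. Most changes were small. Apart from EEF1A2, EIF3CL and EIF2S3L, which had few counts, the largest called change was that of EIF4A3 in MEC1, at 0.53.

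**Figure D1:**
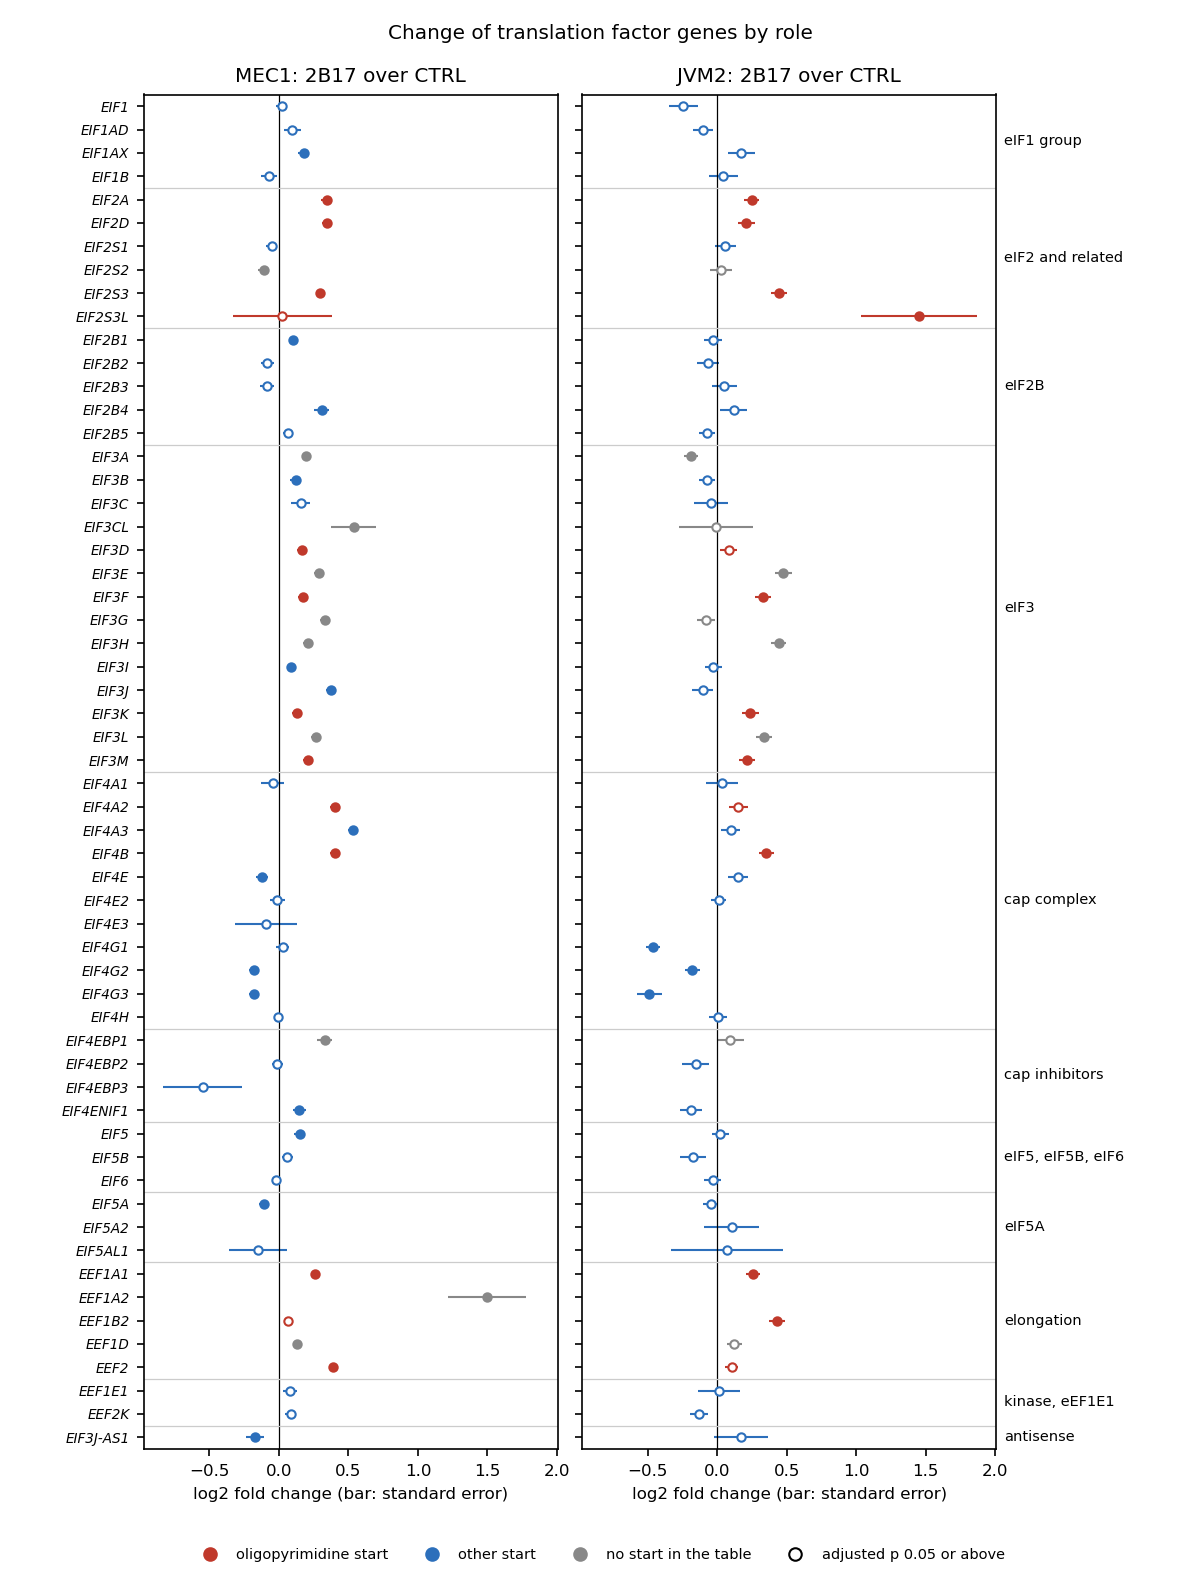
Log2 fold change (x axis, bar: standard error) of each tested factor gene (y axis, grouped by role) in MEC1 (left) and JVM2 (right). Filled points passed an adjusted P of 0.05, open points did not, and colours give the class of the annotated start. In MEC1, 13 of 14 eIF3 genes are filled on the right of 0. In JVM2, EIF3A and the 3 EIF4G genes are filled on the left, and none of the 33 genes with another start is filled on the right.

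The members were then split by the start of the gene, as annotated in RefSeq on GRCh38.p14. A start was counted as oligopyrimidine when its base was C and at least the next 4 bases were C or T on the strand of the gene. Of 35116 annotated starts, 4.07% held this pattern. A gene with several annotated starts was counted when any of them held it. EEF1B2 and EIF2S3L each also have an annotated start without it. A start was found for 50 of the 60 members and held the pattern in 13, among them EEF1A1, EEF2 and EEF1B2 but only 4 of 8 eIF3 genes with an annotated start (EIF3D, EIF3F, EIF3K and EIF3M). EIF2A, EIF2D, EIF2S3, EIF2S3L, EIF4A2 and EIF4B, which the rule does not name, also had it. EEF1A2, EEF1D, EIF2S2, EIF3A, EIF3CL, EIF3E, EIF3G, EIF3H, EIF3L and EIF4EBP1 were not matched to a start. The starts of the 12 members with the pattern and enough counts follow, from RefSeq, because the comparison with the ribosomal proteins turns on them. RPS6, a protein of the small subunit, stands beside them, and EIF3I, EIF3J and EIF4A3 show what another start looks like. Each shows 10 bases before and 20 from the annotated start, and capitals mark the unbroken pyrimidine run. A match describes these letters and is no evidence of where transcription began in these cells.
EEF1A1 (chr6:73521013-73521042, minus strand): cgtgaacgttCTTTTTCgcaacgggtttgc
EEF2 (chr19:3985444-3985473, minus strand): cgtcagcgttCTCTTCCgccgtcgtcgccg
EEF1B2 (chr2:206159885-206159914, plus strand): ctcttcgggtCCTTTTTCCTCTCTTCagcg
EIF3D (chr22:36529147-36529176, minus strand): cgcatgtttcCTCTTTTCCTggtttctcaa
EIF3F (chr11:7987327-7987356, plus strand): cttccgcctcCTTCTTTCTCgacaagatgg
EIF3K (chr19:38619178-38619207, plus strand): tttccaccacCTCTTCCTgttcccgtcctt
EIF3M (chr11:32583821-32583850, plus strand): gcccagttccCTTTTCCggtcggcgtggtc
EIF2A (chr3:150546777-150546806, plus strand): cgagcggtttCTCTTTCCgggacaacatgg
EIF2D (chr1:206612446-206612475, minus strand): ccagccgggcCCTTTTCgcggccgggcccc
EIF2S3 (chrX:24054946-24054975, plus strand): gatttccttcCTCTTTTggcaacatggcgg
EIF4A2 (chr3:186783567-186783596, plus strand): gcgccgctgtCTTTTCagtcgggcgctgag
EIF4B (chr12:53006446-53006475, plus strand): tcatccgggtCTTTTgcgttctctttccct
RPS6 (chr9:19380217-19380246, minus strand): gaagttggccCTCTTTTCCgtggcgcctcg
EIF3I (chr1:32222397-32222426, plus strand): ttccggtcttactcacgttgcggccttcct
EIF3J (chr15:44537137-44537166, plus strand): ccgccgtgctaactcctcgctagctctccc
EIF4A3 (chr17:80147109-80147138, minus strand): cggcagcggcacagcgaggtcggcagcggc

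Most factor genes with an oligopyrimidine start were higher in both lines, and most of those with another start passed no test. The difference between the classes was not tested. In MEC1, 11 of the 13 were higher and 0 lower, with a median of 0.26, and in JVM2 10 of the 13 were higher and 0 lower, with a median of 0.25. Among members with another start, 9 of 34 were higher and 5 lower in MEC1, with a median of 0.0068, and 0 of 33 higher and 3 lower in JVM2, with a median of -0.030. The share of other-start members higher in MEC1 was 26.5%, against 21.0% of other-start genes outside the group. Members not matched to a start had 9 of 10 higher and 1 lower in MEC1, with a median of 0.28, and 3 of 9 higher and 1 lower in JVM2, with a median of 0.092. Without JVM2-2B17 replicate 2, the counts in JVM2 were 12 of 13 higher and, for other starts, 0 higher and 4 lower. The 2 members with the pattern that passed no test in MEC1 were EEF1B2 and EIF2S3L, and the 3 in JVM2 were EEF2, EIF3D and EIF4A2. All 3 of the latter had positive values (between 0.083 and 0.15). The counts of members with another start in MEC1 moved with single libraries, to 5 higher without CTRL replicate 2, to 6 without CTRL replicate 1 or 2B17 replicate 1, and to between 2 and 3 lower without CTRL replicate 2 or 3 or 2B17 replicate 1 or 3. They also moved with the position of the run: when it could begin within 10 bases of the start, which 33.5% of all starts allow, 13 of 26 members were higher and 2 lower in MEC1, and 10 of 27 higher and 3 lower in JVM2. The lower ones were EIF4G2 and EIF4G3, with EIF4G1 in JVM2.

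The list that the rule itself names, EEF1A1, EEF2, EEF1B2 and the 14 eIF3 genes, had 15 of 17 members higher and 0 lower in MEC1, with a median of 0.21. In JVM2, 8 of 17 were higher and 1 was lower, with a median of 0.10, and the medians of single 2B17 libraries were 0.21, 0.046 and 0.15. Without JVM2-2B17 replicate 2, which held the lowest of these, 10 were higher and 2 lower, and without JVM2-CTRL replicate 3 0 were lower. The other 40 factor genes in MEC1 had 14 higher and 6 lower (median 0.027), and the other 38 in JVM2 had 5 higher and 3 lower (median 0.029). A list of factor genes taken from general knowledge as beginning with the element had 8 of 9 higher in MEC1 and 6 of 8 in JVM2. The medians were 0.26 and 0.34, with 0 lower in either. Those tested were EEF1A1, EEF1A2, EEF1B2, EEF1D, EEF2, EIF3E, EIF3F, EIF3H and EIF4B, without EEF1A2 in JVM2. EEF1A2, which had few counts, was among those higher in MEC1. EEF1A2, EEF1D, EIF3E and EIF3H were not matched to an annotated start.

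The contrast by start was present in each of the 6 2B17 libraries. The median of the 13 genes, relative to the mean of CTRL, was 0.25, 0.27 and 0.26 in the replicates of MEC1-2B17 and 0.30, 0.27 and 0.20 in those of JVM2-2B17. CTRL libraries stayed between -0.015 and 0.021. Members with another start had medians between 0.0023 and 0.036 in MEC1-2B17, within the range of MEC1-CTRL, and between -0.054 and 0.013 in JVM2-2B17. The 79 ribosomal protein genes had medians of 0.12, 0.11 and 0.11 in MEC1-2B17 and of 0.43, 0.44 and 0.34 in JVM2-2B17. In each 2B17 library the oligopyrimidine factor genes stood above the other factor genes. They stood above the ribosomal protein genes in MEC1 and under them in JVM2.

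**Figure D2:**
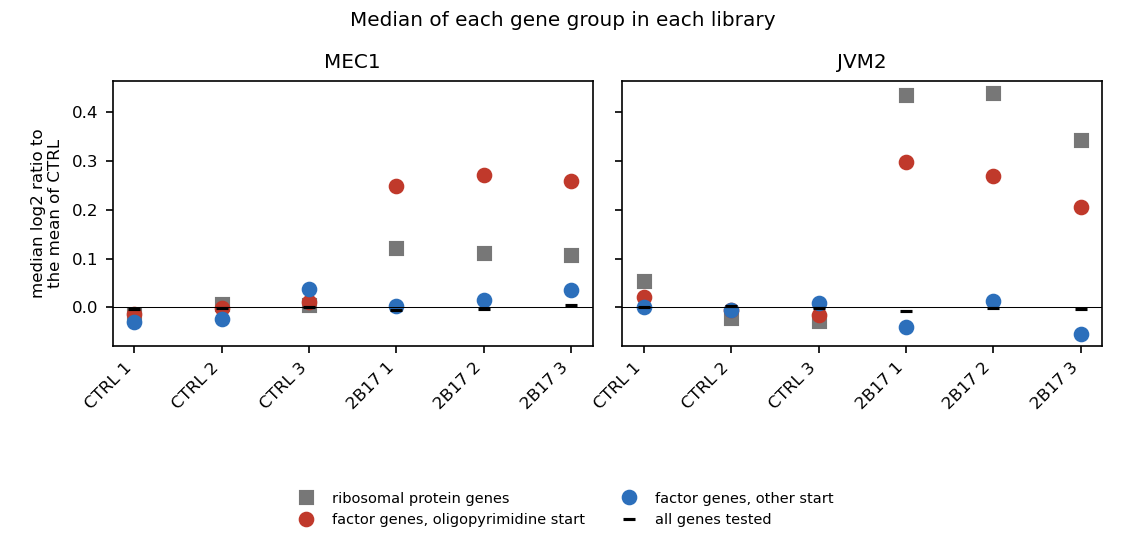
Median log2 ratio of each library to the mean of CTRL (y axis) in the 6 libraries of each line (x axis), for the ribosomal protein genes, factor genes by start, and all genes tested. In MEC1-2B17 the oligopyrimidine factor genes (0.25 to 0.27) lie above the ribosomal protein genes (0.11 to 0.12), and in JVM2-2B17 the order is the other way around.

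Ribosomal protein genes were higher in both lines: 55 of 79 rose and 3 fell in MEC1, with a median of 0.12, and 76 rose and 0 fell in JVM2, with a median of 0.43. Where both edgeR's exact test and DESeq2 had to call them, 36 rose in MEC1. The 3 that fell in MEC1 were RPL35 at -0.34, RPL7A at -0.25 and RPL17 at -0.12, the last of which was lost without CTRL replicate 2 or 3 or 2B17 replicate 2 or 3 (adjusted P from 0.0516 to 0.189 over all alternatives that lost it). Ribosomal protein genes with either kind of annotated start had similar medians. All their mRNAs are known to begin with the element, so the 16 with another annotated start show that the annotation can miss it. Whether it was also missed in factor genes with another start was not tested. In JVM2, 45 of 47 with an oligopyrimidine start rose (median 0.43), as did 15 of 16 with another annotated start (median 0.40). In MEC1, the counts were 31 of 47 (median 0.11) and 11 of 16 (median 0.13). RPS6 stood at 1065, 1040.4 and 1020.1 CPM in MEC1-CTRL and 1155, 1261 and 1138 CPM in MEC1-2B17. In JVM2 its levels were 2031, 1725 and 1868 CPM in CTRL and 2907, 2838 and 2707 CPM in 2B17. The arms did not overlap in either line. Among genes outside both groups, 30.7% of 733 with an oligopyrimidine start were higher in MEC1, against 21.0% of 10117 with another start. The shares in JVM2 were 20.4% of 681 and 12.9% of 9078. Genes with this start lower in 2B17 made up 19.9% and 13.1% of the same groups in MEC1 and JVM2.

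**Figure D3:**
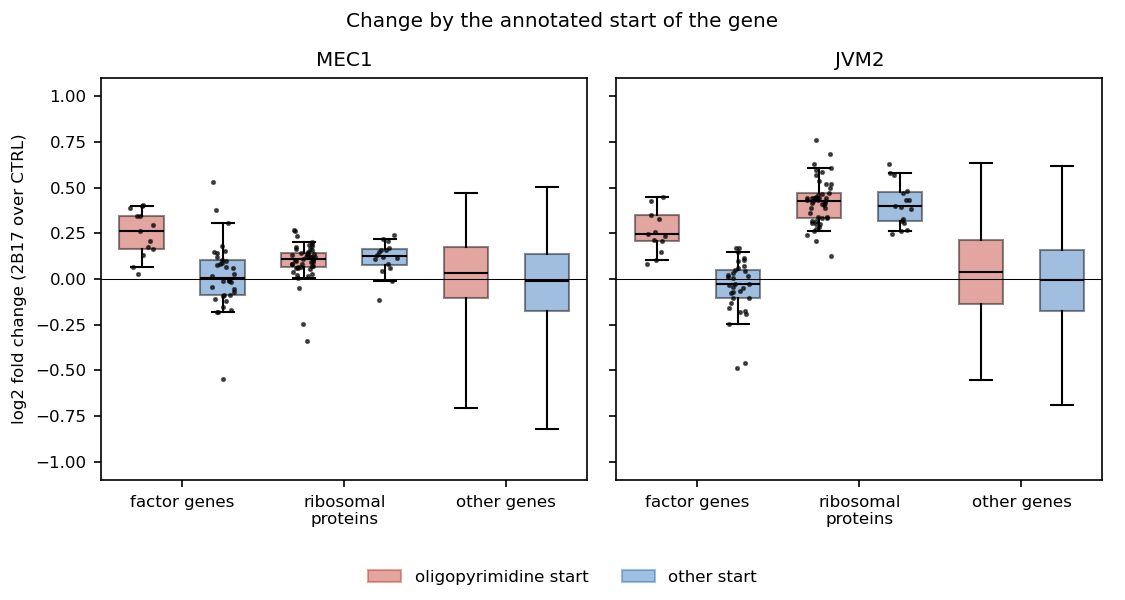
Log2 fold change (y axis) of factor genes, ribosomal protein genes and other genes (x axis) by annotated start. Boxes show quartiles and median, whiskers the 5th to 95th percentiles, and points single genes of the first 2 groups, with EIF2S3L in JVM2 beyond the axis. The medians of the factor genes differ by start in both lines (0.26 against 0.0068 and 0.25 against -0.030), with classes that overlap and EIF4A3 above all oligopyrimidine members in MEC1, whereas the medians of the ribosomal protein genes lie close together (0.11 and 0.13, 0.43 and 0.40).

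Of the elongation factors, 4 of 5 tested in MEC1 and 2 of 4 in JVM2 rose, and EEF1A1 did so in both. The 4 in MEC1 include EEF1A2, which had few counts. The shares of all genes that rose were 20.0% in MEC1 and 14.1% in JVM2. EEF1A1, which carries aminoacyl-tRNAs to the ribosome, stood at 12300.3, 12330.3 and 12414 CPM in MEC1-CTRL and 14675, 14902 and 14803 CPM in MEC1-2B17. In JVM2 it stood at 10513, 10257 and 10079.6 CPM in CTRL and 12294, 13068 and 11484 CPM in 2B17. All 2B17 libraries were above all CTRL libraries. Its change in MEC1 was 0.26 ± 0.016 (adjusted P = 1.23e-10), and that in JVM2 0.26 ± 0.050 (adjusted P = 0.00224). Of its 50-base stretches, 37.2% occur in other genes, but the listed EEF1A1 pseudogenes held only 0.766% of its counts in MEC1 and 0.560% in JVM2.

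EEF2, which moves the ribosome along by a codon, differed more between the arms of MEC1, with 4842, 4964 and 4883 CPM in MEC1-CTRL and 6373, 6332 and 6539.9 CPM in MEC1-2B17. Its change there was 0.39 ± 0.021 (adjusted P = 2.14e-11), among the firmest of the factor genes. In JVM2 the libraries held 3315, 3223 and 3189 CPM in CTRL and 3556, 3348 and 3554 CPM in 2B17. These arms did not overlap, yet the value of 0.10 ± 0.047 (adjusted P = 0.115, and 0.13 with adjusted P = 0.00351 without 2B17 replicate 2) did not pass the test. EEF1B2, a subunit of the exchange factor that recharges eEF1A with GTP, had the opposite distribution. It stood at 832, 838 and 845 CPM in MEC1-CTRL and 878, 884 and 864 CPM in MEC1-2B17, a value of 0.063 ± 0.028 (adjusted P = 0.0853). In JVM2 it rose from 521, 495 and 500.3 CPM to 717, 694 and 629.8 CPM, by 0.43 ± 0.060 (adjusted P = 1.84e-04). For both genes the change differed between the lines, by 0.29 ± 0.047 (adjusted P = 7.82e-05) for EEF2 and -0.36 ± 0.067 (adjusted P = 2.76e-04) for EEF1B2, MEC1 minus JVM2. EEF1B2 shares 62.2% of its 50-base stretches with other genes, while EEF2 shares none.

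EEF1D, another subunit of the exchange factor, rose in MEC1 by 0.13 (adjusted P = 0.00303) and had a value of 0.12 (adjusted P = 0.101) in JVM2. EEF1A2, a form of eEF1A best known from muscle and neurons, was almost silent. Its replicates held 15, 11 and 21 counts in MEC1-CTRL and 44, 52 and 28 in MEC1-2B17, a change of 1.496 (adjusted P = 2.50e-04), and too few to test in JVM2. EEF1G, the remaining subunit of the complex, held at most 9 counts in any library and was not tested. Of its exon bases, 99.5% lie within another annotated gene, and its level is uncertain for that reason. EEF2K, the kinase that inhibits eEF2, and EEF1E1, a part of the tRNA synthetase complex, passed no test in either line.

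The scaffold eIF3, which holds the small ribosomal subunit during initiation, was the largest group, with 14 genes, and held the most called members. By share, more of eIF2 and related genes were called in JVM2, with 4 of 6 higher. In MEC1, 13 of 14 eIF3 genes were higher, with a median of 0.20, whereas in JVM2 6 were higher, 1 was lower and the median was 0.036. The shares of all genes that were higher were 20.0% in MEC1 and 14.1% in JVM2. EIF3E, EIF3F, EIF3H, EIF3K, EIF3L and EIF3M rose in both lines. EIF3E was measured at 509, 526 and 527 CPM in MEC1-CTRL and 642, 662 and 606 CPM in MEC1-2B17. In JVM2 its values were 475, 473 and 487 CPM in CTRL and 650.5, 719 and 626 CPM in 2B17. It rose by 0.29 ± 0.035 (adjusted P = 2.03e-06) in the former and by 0.47 ± 0.060 (adjusted P = 8.46e-05) in the latter, and the arms were apart in both.

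EIF3H, like EIF3F a subunit with an MPN domain, went from 352, 358 and 352 CPM to 404, 421 and 402 CPM in MEC1 and from 341, 317 and 327 CPM to 453, 451 and 434 CPM in JVM2. Its changes were 0.21 ± 0.033 (adjusted P = 5.22e-05) and 0.44 ± 0.054 (adjusted P = 5.74e-05). EIF3F rose by 0.17 (adjusted P = 3.94e-04) and 0.33 (adjusted P = 9.98e-04), and EIF3L by 0.27 (adjusted P = 3.43e-06) and 0.34 (adjusted P = 8.52e-04), although EIF3L shares 58.5% of its exon bases with an overlapping gene. EIF3M rose by 0.21 (adjusted P = 7.09e-05) and 0.21 (adjusted P = 0.0155), the latter not passing without JVM2-CTRL replicate 1 (adjusted P = 0.0672). EIF3K rose by 0.13 (adjusted P = 0.00543) and 0.24 (adjusted P = 0.0109). In JVM2 the call of EIF3K was lost without CTRL replicate 2 or 3 or 2B17 replicate 1 (adjusted P from 0.0503 to 0.0655).

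Other eIF3 subunits were called in MEC1 alone or in opposite directions. EIF3A, the largest subunit, stood at 778, 752 and 766 CPM in MEC1-CTRL and 868, 903 and 855 CPM in MEC1-2B17, but at 626, 617 and 629 CPM in JVM2-CTRL and 545, 545 and 549 CPM in JVM2-2B17. It rose by 0.19 ± 0.031 (adjusted P = 4.68e-05) in MEC1 and fell in JVM2, with -0.19 ± 0.049 (adjusted P = 0.0114), and no arms overlapped. It was the only factor gene called in opposite directions, and its changes differed by 0.39 ± 0.056 (adjusted P = 1.80e-05). Its call in JVM2 was lost without CTRL replicate 3 (adjusted P = 0.0704).

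EIF3G and EIF3J, which contact the mRNA channel side of the small subunit, rose by 0.33 ± 0.035 (adjusted P = 3.36e-07) and 0.38 ± 0.036 (adjusted P = 7.74e-08) in MEC1, with values of -0.081 (adjusted P = 0.374, and -0.036 without 2B17 replicate 2) and -0.11 (adjusted P = 0.335, and -0.16 with adjusted P = 0.0461 without 2B17 replicate 2) in JVM2. EIF3G was at 173, 178 and 181 CPM in MEC1-CTRL and 227, 219 and 224 CPM in MEC1-2B17. The JVM2 libraries overlapped, at 183, 178 and 171 CPM in CTRL and 179, 158 and 167 CPM in 2B17. EIF3D, a subunit able to bind the cap of some mRNAs, rose by 0.16 (adjusted P = 8.60e-04) in MEC1 and had 0.083 (adjusted P = 0.338, and 0.13 with adjusted P = 0.0470 without 2B17 replicate 2) in JVM2. EIF3B and EIF3I rose in MEC1 by 0.12 (adjusted P = 0.0212) and 0.087 (adjusted P = 0.0368), against -0.073 (adjusted P = 0.392, and -0.11 without 2B17 replicate 2) and -0.030 (adjusted P = 0.756, and -0.059 without 2B17 replicate 2) in JVM2. The MEC1 call of EIF3B was lost without CTRL replicate 1 or 2 or 2B17 replicate 1 (adjusted P from 0.0786 to 0.130). That of EIF3I was lost without CTRL replicate 1 or 2 or 2B17 replicate 1 or 3 (adjusted P from 0.0659 to 0.141). EIF3C and EIF3CL share 98.8% and 98.7% of their 50-base stretches with other genes, chiefly with each other, so reads of one cannot be assigned with certainty. EIF3CL, counted 49, 44 and 44 times in the control replicates of MEC1 and 69, 61 and 55 times in those of MEC1-2B17, had a change of 0.54 (adjusted P = 0.0112), and EIF3C had 0.16 (adjusted P = 0.0781). The call of EIF3CL was lost with DESeq2 (adjusted P = 0.0649). In JVM2 neither passed, with values of -0.011 (adjusted P = 0.981, and 0.18 without 2B17 replicate 2) and -0.045 (adjusted P = 0.824).

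**Figure D4:**
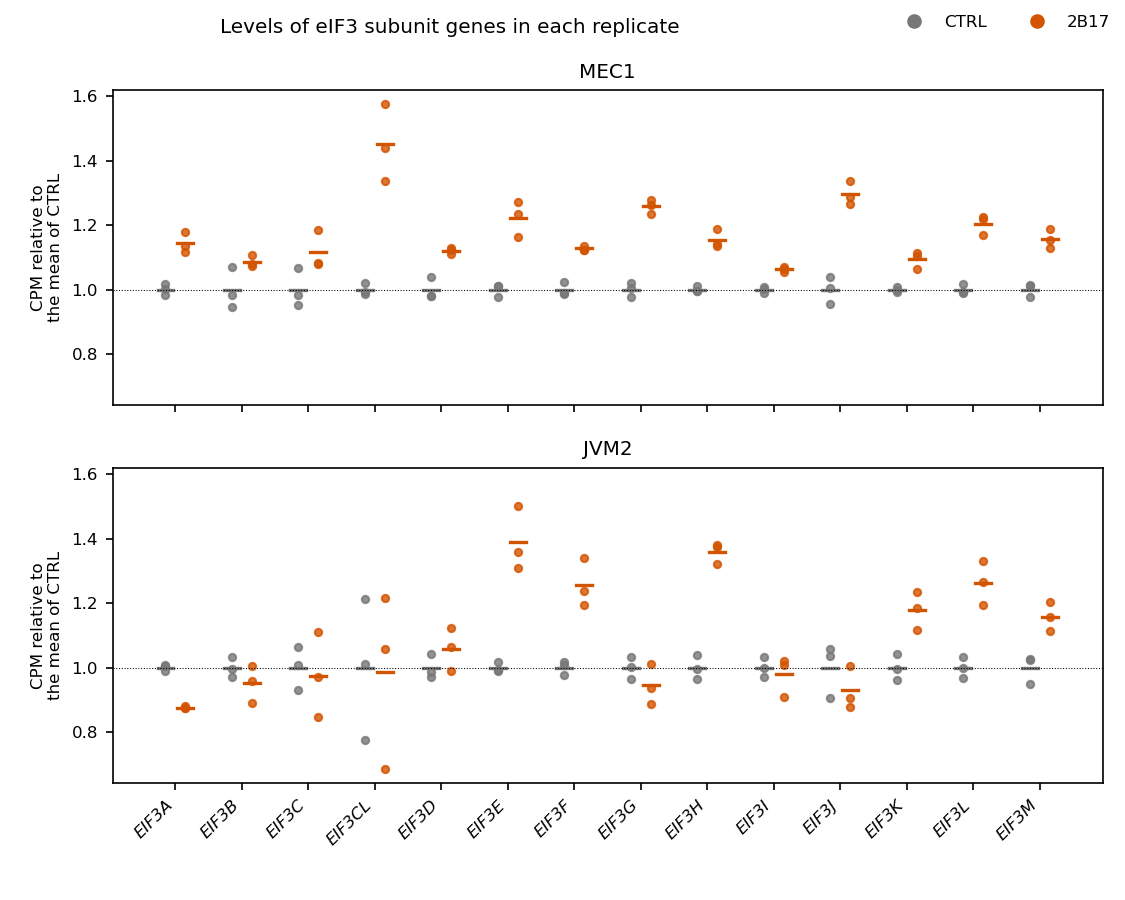
Level of each eIF3 gene in each replicate (points) relative to the mean of CTRL (y axis, CPM ratio), with bars at the mean of the 3 replicates. In MEC1 the 2B17 points lie above all CTRL points for all 14 genes, of which 13 passed the test and EIF3C did not. In JVM2 they do so for EIF3E, EIF3F, EIF3H, EIF3K, EIF3L and EIF3M, with EIF3A below.

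Among factors that bring the initiator tRNA, EIF2S3, EIF2A and EIF2D, which have an oligopyrimidine start, rose in both lines. EIF2S3, the gamma subunit of eIF2, stood at 779, 772 and 769 CPM in MEC1-CTRL and 935, 988 and 926 CPM in MEC1-2B17. In JVM2 it was at 579, 587 and 573 CPM in CTRL and 778, 842 and 749.6 CPM in 2B17. The arms were separate in both lines, and the changes were 0.30 ± 0.031 (adjusted P = 2.89e-07) and 0.45 ± 0.057 (adjusted P = 8.48e-05). The other eIF2 subunits did not follow: EIF2S1 passed no test in either line, and EIF2S2 was lower in MEC1 at -0.11 (adjusted P = 0.0208), with 0.026 (adjusted P = 0.841, and -0.081 without 2B17 replicate 2) in JVM2. The MEC1 call of EIF2S2 was lost without CTRL replicate 2 or 2B17 replicate 3 (adjusted P from 0.105 to 0.163), and without the latter the value was -0.071.

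EIF2A and EIF2D, which act apart from eIF2 and can deliver tRNAs to the ribosome by other routes, both rose in both lines. EIF2A was at 179, 192 and 189.8 CPM in MEC1-CTRL and 239, 245 and 227 CPM in MEC1-2B17, and at 261, 247 and 263 CPM and 311, 307 and 296 CPM in the arms of JVM2. It rose by 0.34 ± 0.039 (adjusted P = 8.69e-07) and 0.25 ± 0.054 (adjusted P = 0.00470). EIF2D rose by 0.35 ± 0.036 (adjusted P = 2.23e-07) in MEC1, where its arms stood at 162 ± 2.40 CPM and 206 ± 5.27 CPM (SD, n = 3). In JVM2 its change was 0.21 ± 0.061 (adjusted P = 0.0222), a call lost without any 1 of the CTRL replicates or without 2B17 replicate 1 (adjusted P from 0.0579 to 0.110). EIF2S3L, named EIF2S3B in RefSeq, is a near copy of EIF2S3 at low level. JVM2-CTRL replicates held 2, 9 and 6 of its counts and JVM2-2B17 replicates 20, 10 and 15, a change of 1.45 (adjusted P = 0.0204), against 0.025 (adjusted P = 0.965) in MEC1. The JVM2 call was lost without CTRL replicate 1 or 3 or 2B17 replicate 1 or 3 (adjusted P from 0.0515 to 0.0776), and EIF2S3L shares 25.2% of its 50-base stretches with other genes.

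The exchange factor eIF2B recharges eIF2 with GTP and is the point at which cellular stress halts initiation. In MEC1, 2 of its 5 genes were higher, where 20.0% of all genes were. EIF2B4 rose in MEC1 from 21.3, 19.8 and 21.1 CPM to 26.2, 25.1 and 25.7 CPM, by 0.31 (adjusted P = 1.22e-04), and EIF2B1 by 0.10 (adjusted P = 0.0161). The call of EIF2B1 was lost without CTRL replicate 1 or 2 (adjusted P from 0.0548 to 0.0581). None of the 5 eIF2B genes was called in JVM2, where their values lay between -0.075 and 0.12. Of the eIF1 group, which governs the choice of the start codon, EIF1AX alone was called, in MEC1, at 0.18 (adjusted P = 0.00129). Its value in JVM2 was 0.17 (adjusted P = 0.201, and 0.069 without 2B17 replicate 2), where its arms stood at 175, 221 and 205 CPM in CTRL and 206, 258 and 214 CPM in 2B17.

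The group around the cap-binding complex held the largest called falls as well as some of the largest called rises. In MEC1, 3 of 11 were higher and 3 lower, and in JVM2 1 of 10 was higher and 3 lower. The 3 higher in MEC1 include EIF4A3, which was counted in this group but belongs to the exon junction complex. For comparison, 20.0% of all genes were higher and 21.6% lower in MEC1, and 14.1% and 15.3% in JVM2. Whether the cap-binding group departed from these shares was not tested. EIF4G3, a scaffold of the cap-binding complex, was lower in both lines, at 82.9, 80.2 and 81.8 CPM in MEC1-CTRL and 71.9, 73.8 and 70.2 CPM in MEC1-2B17. In JVM2 it stood at 79.0, 80.8 and 86.6 CPM in CTRL and 62.8, 49.2 and 63.2 CPM in 2B17. Its changes were -0.18 ± 0.037 (adjusted P = 5.44e-04) and -0.49 ± 0.090 (adjusted P = 0.00141), and they differed by 0.31 ± 0.092 (adjusted P = 0.0128). EIF4G1, the main scaffold, was at 1027, 977 and 987 CPM in JVM2-CTRL and 736, 692 and 743 CPM in JVM2-2B17. The JVM2 arms lay far apart, with a change of -0.46 ± 0.053 (adjusted P = 3.54e-05). In MEC1 the arms of EIF4G1 overlapped, at 529, 529.7 and 616 CPM in CTRL and 581, 555 and 572 CPM in 2B17, with a value of 0.028 ± 0.047 (adjusted P = 0.672). These changes differed by 0.50 ± 0.074 (adjusted P = 2.92e-05).

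EIF4G2, a related scaffold that does not bind the cap protein, was lower in both lines to nearly the same extent. It went from 583, 577 and 609 CPM to 514, 524 and 523 CPM in MEC1 and from 848, 843 and 892 CPM to 786, 731 and 762 CPM in JVM2. These changes were -0.18 ± 0.032 (adjusted P = 1.55e-04) and -0.18 ± 0.053 (adjusted P = 0.0231). In JVM2 the call was lost without any 1 of the CTRL replicates or without 2B17 replicate 3 (adjusted P from 0.0510 to 0.139). EIF4E, which binds the cap itself, was lower in MEC1 at -0.12 (adjusted P = 0.0342) and had 0.15 (adjusted P = 0.134, and 0.076 without 2B17 replicate 2) in JVM2. Its MEC1 call was lost without CTRL replicate 2 or 3 or 2B17 replicate 1 or 3 (adjusted P from 0.0532 to 0.171), and without CTRL replicate 3 the value was -0.072.

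EIF4B, which stimulates the eIF4A helicase and whose gene has an oligopyrimidine start, rose in both lines. It stood at 593, 604 and 614 CPM in MEC1-CTRL and 778, 822 and 792 CPM in MEC1-2B17, and at 1234, 1200.4 and 1216 CPM and 1537, 1639 and 1482 CPM in the arms of JVM2. No arms overlapped, and the changes were 0.40 ± 0.032 (adjusted P = 5.89e-09) and 0.35 ± 0.053 (adjusted P = 3.09e-04). EIF4A2, a form of the helicase with the same kind of start, rose in MEC1 from 382, 418 and 419.6 CPM to 526, 555 and 533 CPM, by 0.40 ± 0.039 (adjusted P = 8.80e-08). Its JVM2 value was 0.15 ± 0.068 (adjusted P = 0.116, and 0.068 without 2B17 replicate 2), with 2B17 replicate 2 (521 CPM) above the other replicates (439 and 445 CPM). EIF4A3, a core protein of the exon junction complex, rose in MEC1 from 157, 161 and 167 CPM to 236, 232 and 232 CPM, by 0.53 ± 0.036 (adjusted P = 6.60e-10). Its gene has another kind of start, and its JVM2 value was 0.096 (adjusted P = 0.308, and 0.033 without 2B17 replicate 2). EIF4A1, EIF4E2 and EIF4H passed no test in either line, but all exon bases of EIF4A1 lie within a readthrough gene, so its level is uncertain.

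Of the inhibitors of eIF4E, EIF4EBP1, a target of mTOR, rose in MEC1 from 108, 106 and 89.2 CPM to 127, 121 and 133 CPM, by 0.33 (adjusted P = 6.48e-05), and had 0.092 (adjusted P = 0.513, and 0.16 without 2B17 replicate 2) in JVM2. EIF4ENIF1, which carries eIF4E into the nucleus, rose in MEC1 by 0.14 (adjusted P = 0.0176). Its MEC1 call was lost without CTRL replicate 2 or 2B17 replicate 1 (adjusted P from 0.0520 to 0.0910), and the value in JVM2 was -0.19 (adjusted P = 0.0978, and -0.13 without 2B17 replicate 2). EIF4EBP2 passed no test in either line, nor did EIF4EBP3 in MEC1. Among factors of subunit joining, EIF5, which triggers GTP hydrolysis by eIF2, rose in MEC1 by 0.15 (adjusted P = 0.00778), a call lost without CTRL replicate 1 (adjusted P = 0.0542), with 0.020 (adjusted P = 0.839, and -0.030 without 2B17 replicate 2) in JVM2. EIF5B and EIF6 were not called. EIF5A, which helps ribosomes through stretches such as proline runs, was lower in MEC1 at -0.11 (adjusted P = 0.0167), lost without 2B17 replicate 1 or 2 (adjusted P from 0.0545 to 0.0703), and stood at -0.049 (adjusted P = 0.518) in JVM2. EIF3J-AS1, transcribed opposite to EIF3J, was lower in MEC1 at -0.17 (adjusted P = 0.0461). Its call was lost without 5 of the 6 libraries, MEC1-2B17 replicate 2 being the exception (adjusted P from 0.0508 to 0.146). The counting is not stated to use strand, so its reads cannot be told apart from those of genes it overlaps.

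Across the 54 factor genes tested in both lines, 11 were higher in both. They were EEF1A1, EIF2A, EIF2D, EIF2S3, EIF3E, EIF3F, EIF3H, EIF3K, EIF3L, EIF3M and EIF4B. EIF4G2 and EIF4G3 were lower in both. The shares of all genes were 20.0% higher and 21.6% lower in MEC1, and 14.1% and 15.3% in JVM2. How many of all genes were called in both lines was not counted, so this overlap cannot be weighed against them. Another 16 were higher in MEC1 only, 4 were lower in MEC1 only, EEF1B2 and EIF2S3L were higher in JVM2 only, EIF4G1 was lower in JVM2 only, and 17 passed in neither. A call in a single line does not show a difference, so the change itself was compared between the lines. It differed for 13 of 56 factor genes, where 32.0% of 15130 genes did so. The change was more positive in MEC1 for 10 of them and in JVM2 for 3, EEF1B2, EIF3H and EIF4E.

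**Figure D5:**
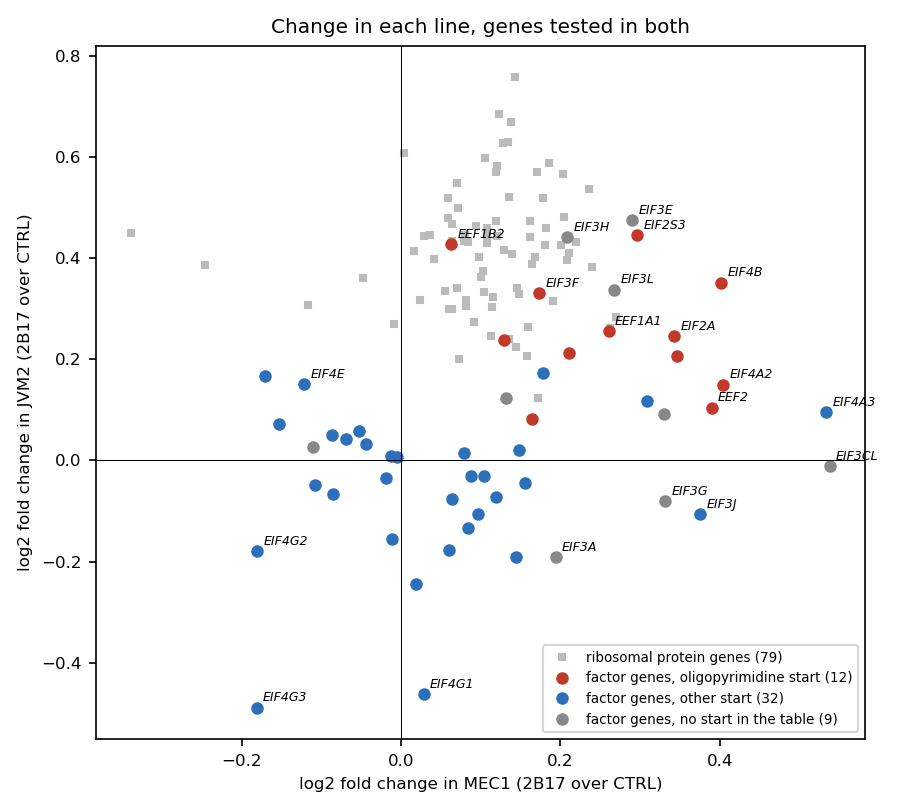
Log2 fold change in JVM2 (y axis) against that in MEC1 (x axis) for genes tested in both lines, EIF2S3L left out. Squares are ribosomal protein genes and circles factor genes by annotated start. The 12 oligopyrimidine factor genes all lie above 0 on both axes. Genes with another start lie on both sides of 0, reaching 0.53 (EIF4A3) in MEC1, with EIF4G1 and EIF4G3 lowest in JVM2.

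Other genes of translation had no common direction. Over all genes tested, 20.0% were higher and 21.6% lower in MEC1, and 14.1% and 15.3% in JVM2. Of 10 mitochondrial translation factor genes, 1 was higher and 3 lower in MEC1 and 1 was higher and 0 lower in JVM2. Of 15 genes for poly(A)-binding, termination and related cytosolic proteins, 2 were higher and 4 lower in MEC1, and 3 were higher and 2 lower in JVM2. PABPC4, a poly(A)-binding protein, rose in both lines, by 0.19 (adjusted P = 9.62e-05) and 0.17 (adjusted P = 0.0265). In JVM2 this was lost without any 1 of the CTRL replicates or without 2B17 replicate 3 (adjusted P from 0.0632 to 0.128). PAIP2 and PAIP2B, inhibitors of the poly(A)-binding protein, were lower in MEC1, at -0.10 (adjusted P = 0.0221) and -0.58 (adjusted P = 6.98e-07), and higher in JVM2, at 0.43 (adjusted P = 1.29e-04) and 0.69 (adjusted P = 0.0496, and 0.49 without 2B17 replicate 2). The call of PAIP2 in MEC1 was lost without CTRL replicate 1 or 2 or 2B17 replicate 2 or 3 and with DESeq2 (adjusted P from 0.0600 to 0.116). That of PAIP2B in JVM2 was lost in 10 of 13 alternatives, among them each library left out other than 2B17 replicate 1 (adjusted P from 0.0503 to 0.169).

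Of 17 control genes of translation, 9 were higher and 2 lower in MEC1, whereas 1 was higher and 5 were lower in JVM2. The shares over all genes were 20.0% higher and 21.6% lower in MEC1, and 14.1% and 15.3% in JVM2. PDCD4, an inhibitor of eIF4A, rose in both, by 0.47 (adjusted P = 2.68e-08) and 0.36 (adjusted P = 0.00167). EIF2AK2, the kinase that halts initiation on sensing double-stranded RNA, fell in both, with -0.51 (adjusted P = 8.05e-09) and -0.35 (adjusted P = 0.00298). LARP1, which binds oligopyrimidine mRNAs, rose in MEC1 by 0.085 (adjusted P = 0.0443) and fell in JVM2, with -0.40 (adjusted P = 0.0378, and -0.21 without 2B17 replicate 2). Its MEC1 call was lost in 8 of 13 alternatives, including without CTRL replicate 2 or any 1 of the 2B17 replicates (adjusted P from 0.0510 to 0.232), and its JVM2 call without any 1 of the CTRL replicates and with DESeq2 (adjusted P from 0.0865 to 0.150). LARP4, a related protein that protects mRNA tails, rose in MEC1 by 0.18 (adjusted P = 0.00445) and fell in JVM2, with -0.21 (adjusted P = 0.0183), the latter lost without CTRL replicate 2 or 3 or 2B17 replicate 1 or 3 and with DESeq2 (adjusted P from 0.0506 to 0.0848).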

How the data were processed

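The authors sequenced ribosomal RNA-depleted libraries of MEC1 and JVM2 B-cell lines in paired-end mode, trimmed the reads with Trimmomatic and aligned them to hg38 with TopHat2 2.0.14, and counted reads per gene with HTSeq, whose strand setting is not given in the sources used here. Sequencing took place at 2 sites, and the site of each library is not given there either. The values used were the deposited raw counts of 12 samples, 1 table per line. The 12 normalized columns and the columns of the authors' own comparisons (fold changes and P-values from DESeq2 and edgeR) were not used.

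Each line was fitted by itself on all of its genes with edgeR 4.0.16 in R 4.3.3, with TMM factors, filterByExpr (minimum count 10, minimum total 15), the quasi-likelihood F-test of 2B17 against CTRL and Benjamini-Hochberg adjustment over all genes tested, calling at 0.05. The standard error is the log2 fold change divided by the square root of F. Line-by-arm differences were fitted on all 12 libraries. Ratios of single libraries used CPM plus 0.1. The code was tested on simulated data. Alternatives were DESeq2 1.42.0, both edgeR's exact test and DESeq2 (the call rule of the study), other scalings and filters, a replicate block, each replicate left out, and, chosen after seeing the data, leaving out 7 members that share more than 50% of their 50-base stretches with other genes.

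Starts came from RefSeq gene starts on GRCh38.p14, matched by symbol or ID for 13153 of 23533 listed genes, and overlaps from a GENCODE annotation of GRCh38. The members, gene lists and tests were chosen with earlier results of these data known. A further B-cell marker is not reported here. Full statistics were planned for EEF1A1, EEF2, EEF1B2, eIF3 genes and members called in both lines. They were also planned, in each line, for the 3 largest rises and falls at an average log2 CPM of at least 1. Of the eIF3 genes, EIF3A, EIF3E and EIF3H have levels and standard errors in both lines. The other eIF3 genes, EIF2D and EIF3J-AS1 are given with only part of these. Other members are given in brief, and genes of the other lists were named when called in both lines. A second listed row of RPL41 was left out of the ribosomal protein genes after its values were seen. With 3 samples an arm, depth was 31762649 to 37744991 counts in MEC1 and 8809179 to 11231330 in JVM2.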

Additional observations from a re-analysis of the deposited data

Results flagged for a closer look

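The change differed between the lines for 13 of 56 factor genes, a smaller share than the 32.0% of all 15130 genes tested. It was tested as a line-by-arm interaction over all 12 libraries (edgeR, Benjamini-Hochberg adjustment). Each of the 13 is listed here because of this difference. Values are the log2 change in MEC1 minus that in JVM2, and the cause of none was tested. MEC1 arms also differ in construct and antibiotic, and the lines in depth. More positive in MEC1 were EIF4G1 at 0.50 ± 0.074 (adjusted P = 2.92e-05), EIF3J at 0.49 ± 0.088 (adjusted P = 2.35e-04), EIF4A3 at 0.44 ± 0.077 (adjusted P = 1.65e-04), EIF3G at 0.42 ± 0.072 (adjusted P = 1.40e-04) and EIF3A at 0.39 ± 0.056 (adjusted P = 1.80e-05). So were EIF4ENIF1 at 0.34 ± 0.090 (adjusted P = 0.00644), EIF4G3 at 0.31 ± 0.092 (adjusted P = 0.0128), EEF2 at 0.29 ± 0.047 (adjusted P = 7.82e-05), EIF4A2 at 0.26 ± 0.083 (adjusted P = 0.0222) and EEF2K at 0.22 ± 0.069 (adjusted P = 0.0172). More positive in JVM2 were EEF1B2 at -0.36 ± 0.067 (adjusted P = 2.76e-04), EIF4E at -0.27 ± 0.091 (adjusted P = 0.0287) and EIF3H at -0.23 ± 0.064 (adjusted P = 0.00851). The difference of EEF2K was lost without MEC1-CTRL replicate 2 or JVM2-CTRL replicate 1 (adjusted P from 0.0538 to 0.0605). That of EIF4A2 was lost without MEC1-CTRL replicate 1, MEC1-2B17 replicate 2, JVM2-CTRL replicate 3 or JVM2-2B17 replicate 1 or 3 (adjusted P from 0.0531 to 0.0804). That of EIF4E was lost without MEC1-CTRL replicate 3, MEC1-2B17 replicate 1 or 3, JVM2-CTRL replicate 1 or JVM2-2B17 replicate 2 (adjusted P from 0.0610 to 0.0755).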

How the results depend on the processing

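The counts of factor genes called higher kept within 1.5 times of the reported ones under all alternatives run, with 25 to 31 in MEC1 and 10 to 15 in JVM2 when each replicate was left out, and 11 to 17 genes differed between the lines. Fewer than the 6 lower genes of MEC1 were called by both edgeR's exact test and DESeq2 (2) and when each replicate was left out (3 to 5), and 2 to 5 against 4 in JVM2. Among members with another start in MEC1, the 5 lower ones became 2 with both tools and 2 to 4 with each replicate left out, and the 9 higher ones became 5 to 11. With the run allowed within 10 bases of the start, oligopyrimidine members had 2 lower in MEC1 and 3 lower in JVM2 (both 0 before), and members with another start had 3 lower in MEC1 and 0 in JVM2 (5 and 3 before). With each replicate left out, 13 to 15 of the members named by the rule were higher in MEC1, and 0 to 2 were lower in JVM2 (1 before). Same-numbered replicates were not paired by the labels, and not every number's libraries deviated together. In MEC1 their correlations were -0.042, -0.0067 and 0.040, within the range of other pairs (-0.075 to 0.085). In JVM2 they were 0.086, 0.12 and -0.0059, against -0.12 to 0.062 for other pairs. Replicates 1 and 2 of JVM2 thus lay above every other pair of that line, and whether they share a batch was not tested. The replicate block gave 29 higher and 5 lower in MEC1, 15 and 5 in JVM2, 15 differences between the lines, and 1 higher member with another start in JVM2 (0 before). Leaving out members that share more than 50% of their 50-base stretches, an alternative chosen after seeing the data, gave 27 higher and 6 lower in MEC1, 11 and 4 in JVM2 and 12 differences. Of the 79 ribosomal protein genes, 36 instead of 55 were higher in MEC1 with both tools. Single factor genes were followed where they were called in a line, were called in the other line or are named by the rule. Of 65 such called values, 46 kept their call under every alternative run, and the others are named above with the libraries that decide them, apart from EIF3CL in MEC1, which no single library decided and which was lost with DESeq2 and where both tools had to call it. EIF3J-AS1 in MEC1 and EIF2S3L in JVM2 were also lost with DESeq2, EIF2S2, EIF3B, EIF3I, EIF4E and EIF5A in MEC1 and EIF4G2 in JVM2 where both tools had to call them, EIF3I with scaling by library size only, and EIF3J-AS1 with no filter and under the replicate block. Signs of values that were not called turned when single replicates were left out, with ranges of -0.26 to 0.22 for EIF2S3L and -0.010 to 0.10 for EIF4G1 in MEC1, and in JVM2 -0.071 to 0.016 for EIF2B1, -0.081 to 0.085 for EIF2S2, -0.14 to 0.058 for EIF3C, -0.21 to 0.18 for EIF3CL, -0.059 to 0.024 for EIF3I, -0.030 to 0.056 for EIF5 and -0.034 to 0.47 for RPL17. JVM2 had both fewer counts and a wider spread between replicates than MEC1, and a change not called there is not shown to be absent. The cause of each change of call was not tested.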

Other observations

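The eIF3 genes of JVM2 divided by the place of their protein in the complex, a grouping made after their values were seen and given without a test. EIF3E, EIF3F, EIF3H, EIF3K, EIF3L and EIF3M encode subunits of the octameric core other than eIF3a and eIF3c, and all 6 were higher in JVM2 (0.21 to 0.47, median 0.33) as well as in MEC1 (0.13 to 0.29, median 0.21). EIF3B, EIF3G and EIF3I, which form a module attached to eIF3a, had 0 of 3 called in JVM2 and 3 of 3 higher in MEC1. EIF3A, EIF3C and EIF3CL had 1 lower and 0 higher in JVM2 and 2 of 3 higher in MEC1. EIF3D and EIF3J had 0 of 2 called in JVM2 and 2 of 2 higher in MEC1, and without JVM2-2B17 replicate 2 both were called in JVM2, EIF3D higher at 0.13 and EIF3J lower at -0.16.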
